A study of Mus musculus with 16 samples.

Results

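The genes described here are *Apoe* and its neighbours *Apoc1*, *Apoc2* and *Apoc4*, which together encode secreted apolipoproteins, and *Pltp* and *Lpl*, whose products remodel lipoproteins outside the cell. They were taken by gene symbol, and all 6 are among the 48432 genes of the RNA-seq table from oxLDL-treated mouse peritoneal macrophages (PM). The study asked how lipid droplet-associated hydrolase (LDAH), a protein of lipid droplets, acts on foam cells, the lipid-laden macrophages of atheroma. Thioglycolate (3%) was injected into the peritoneum, PM were harvested after 5 days, and the cultured cells were given oxLDL at 50 μg/ml for 48 h, so that each of the 4 groups consists of loaded cells. LDAH-Tg PM overexpress LDAH from a transgene under the *Csf1r* promoter and its FIRE enhancer, which is active in myeloid cells, and the founders (B6D2F1) were crossed to C57BL/6. Their controls bear a genotype label that reads LDAH ApoE control. LDAH-KO PM lack LDAH through a cassette that takes the place of its first coding exons, and their WT controls are labelled LDAH WT. The labels give the strain of all 16 samples (4 in each group) as C57BL/6J. The study also bred both alleles into *Apoe*-/- mice, and the sources used here do not say whether the mice that gave the RNA were of that background.

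Apolipoprotein E is secreted in large amounts by macrophages, binds endocytic receptors and accepts cholesterol that leaves the cell. The apoC proteins are small exchangeable apolipoproteins. ApoC-II is the cofactor that lipoprotein lipase (LPL) needs to hydrolyse the triglyceride of chylomicrons and VLDL, whereas apoC-I restrains several steps of lipoprotein clearance. Phospholipid transfer protein (PLTP) moves phospholipids among lipoproteins and enlarges HDL. In macrophages the liver X receptors (LXRs), which respond to oxysterols, are known to induce *Apoe*, the *Apoc* genes, *Pltp* and *Lpl*.

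The *Apoc2*, *Apoc4*, *Apoc1* and *Apoe* genes lie in this order, on the minus strand, within 27610 bases of chromosome 7 (GRCm38). *Apoc2* (ENSMUSG00000002992.17) spans 19671579 to 19677941, *Apoc4* (ENSMUSG00000074336.5) 19678083 to 19681479, *Apoc1* (ENSMUSG00000040564.14) 19689481 to 19692660, and *Apoe* (ENSMUSG00000002985.16) 19696109 to 19699188. Only 141 bases separate *Apoc4* from *Apoc2*, while 8001 bases separate *Apoc1* from *Apoc4* and 3448 bases separate *Apoe* from *Apoc1*. *Pltp* (ENSMUSG00000017754.13) lies on the minus strand of chromosome 2, at 164839518 to 164857711, and *Lpl* (ENSMUSG00000015568.15) on the plus strand of chromosome 8, at 68880491 to 68907448. The sequence in front of the start sites of 3 expressed members is printed here because their levels moved apart between the groups, as described further on. It was taken from RefSeq (GRCm38.p6), which matched 4 of the 6 members, at the start farthest upstream. Capitals mark matches to any of 5 motifs searched on both strands: TATAAA, found near many start sites, GGGCGG, bound by Sp1, AGGTCA, a nuclear receptor half-site, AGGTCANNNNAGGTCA, the direct repeat bound by LXR, in which the half-site overlaps, and GAGGAA, a core bound by PU.1.
Apoe chr7:19699189-19699438 (minus strand): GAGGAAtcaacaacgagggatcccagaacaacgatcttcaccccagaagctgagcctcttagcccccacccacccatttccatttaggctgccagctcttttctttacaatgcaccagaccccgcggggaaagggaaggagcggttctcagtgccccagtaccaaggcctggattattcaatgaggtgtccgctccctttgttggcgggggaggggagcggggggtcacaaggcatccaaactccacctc
Apoc2 chr7:19677942-19678082 (minus strand): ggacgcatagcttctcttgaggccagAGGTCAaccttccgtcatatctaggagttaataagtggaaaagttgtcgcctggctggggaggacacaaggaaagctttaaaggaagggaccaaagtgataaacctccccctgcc
Pltp chr2:164857709-164857958 (minus strand): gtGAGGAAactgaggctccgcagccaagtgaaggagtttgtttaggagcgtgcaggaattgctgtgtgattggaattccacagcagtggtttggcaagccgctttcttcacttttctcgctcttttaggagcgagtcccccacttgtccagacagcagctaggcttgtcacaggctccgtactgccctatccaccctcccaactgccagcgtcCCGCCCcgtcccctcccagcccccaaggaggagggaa
*Apoe* and *Pltp* are shown with 250 bases before the start. *Apoc2* is shown with the whole stretch of 141 bases between the end of *Apoc4* and its own start. *Apoe* had the PU.1 core at its far end (-250 to -245), and *Pltp* had one at -248 to -243 together with the Sp1 motif on the other strand at -37 to -32. The stretch before *Apoc2* held 1 nuclear receptor half-site, at -115 to -110. Among 32851 RefSeq promoters, 23.3% held the PU.1 core, 32.7% the Sp1 motif and 12.4% the TATAAA motif in 250 bases, and 8.05% held the half-site in 141 bases. The LXR repeat was spelled out in 5 of these promoters (0.0152%), and in none of the 4 member windows searched. So rare an exact spelling was unlikely to be met in 4 windows, and its absence says nothing on LXR control. Looser spellings and sites farther away were not searched.

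The values are the authors' mean TPM (transcripts per 1000000) of each group, and no value per sample was used. Therefore no SD, p-value or replicate check accompanies any difference given here, and the depth is unknown. *Ldah*, the gene manipulated in the mice, had a mean of 124 TPM in LDAH-Tg PM against 28.5 TPM in their controls, and 27.9 TPM in LDAH-KO PM against 44.5 TPM in their WT controls. The macrophage markers were present, with 9 or 10 of 10 at or above 1 TPM in each group. The exception was *Lyz2*, which was listed at 0 in 3 groups and at 10105 TPM in LDAH-Tg PM. Hepatocyte markers, for cells that also make apolipoproteins, summed to at most 0.623 TPM in any group, and among adipocyte markers only *Lipe* reached 1 TPM.

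*Apoe* was among the most abundant transcripts in every group, at rank 5 in LDAH-Tg PM and in their controls and at rank 1 in LDAH-KO PM and in their WT controls. These ranks depend on abundant genes listed at 0 in some groups. *Lyz2*, at 10105 TPM in LDAH-Tg PM, stood above *Apoe* there and was listed at 0 in every other group. *mt-Nd2* stood above it in the controls of LDAH-Tg (13146 TPM) and was listed at 0 in LDAH-Tg PM. The *Apoe* mean was 7947 TPM in LDAH-Tg PM against 8775 TPM in their controls, a ratio of 0.906. It was 10404 TPM in LDAH-KO PM against 9565 TPM in their WT controls, a ratio of 1.09. The lowest mean was that of LDAH-Tg PM and the highest that of LDAH-KO PM, with a factor of 1.31 between them. No group of samples stood near 0 for *Apoe*, including the controls whose label names ApoE. Which exons of *Apoe* gave these reads cannot be seen in gene-level values. *Apoe* alone made up 0.795% of all TPM in LDAH-Tg PM against 0.877% in their controls, and 1.04% in LDAH-KO PM against 0.956% in their WT controls.

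The other genes of the cluster were expressed far below *Apoe*. *Apoc2* had means of 28.7 TPM in LDAH-Tg PM against 23.6 TPM in their controls, and of 9.01 TPM in LDAH-KO PM against 8.17 TPM in their WT controls. *Apoc1* had 1.51 TPM in LDAH-Tg PM against 1.35 TPM in their controls, and 1.01 TPM in LDAH-KO PM against 0.870 TPM in their WT controls. *Apoc4*, for which the role of the protein in lipoproteins is less settled, was near the lower limit of the table, at 0.150 TPM in LDAH-Tg PM against 0 in their controls, and at 0.295 TPM in LDAH-KO PM against 0.0921 TPM in their WT controls. Since TPM is scaled to transcript length, these levels can be set side by side, and *Apoe* made up between 99.6% and 99.9% of the TPM of the cluster in the 4 groups. For *Apoc2* and *Apoc1* the order of the groups was the same, with LDAH-Tg PM highest, then their controls, LDAH-KO PM and the WT controls of LDAH-KO, whereas *Apoe* followed the order LDAH-KO, WT of LDAH-KO, control of LDAH-Tg and LDAH-Tg. Whether neighbours in these orders differ beyond the spread of the samples cannot be seen in means.

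*Pltp*, the transfer protein gene, was the second most abundant member with a value in all groups. It had 385 TPM in LDAH-Tg PM against 384 TPM in their controls, and 181 TPM in LDAH-KO PM against 177 TPM in their WT controls. Within each pair the means were almost identical, whereas the pairs differed by a factor of about 2.17 from the highest to the lowest group. *Lpl* had a mean of 3544 TPM in the WT controls of LDAH-KO, which placed it at rank 21 in that group, and was listed at 0 in LDAH-KO PM, in LDAH-Tg PM and in the controls of LDAH-Tg. A 0 beside so high a mean was treated as a failed estimate, so no ratio is given for *Lpl*. It was not alone in this. Of 219 genes that reached 1000 TPM in some group, 13 were listed at 0 in another, among them *Cd36* (a scavenger receptor for oxLDL), *Ctsl* and *Ctss* (lysosomal cathepsins), *Prdx1* and 5 mitochondrially encoded genes.

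**Figure D1:**
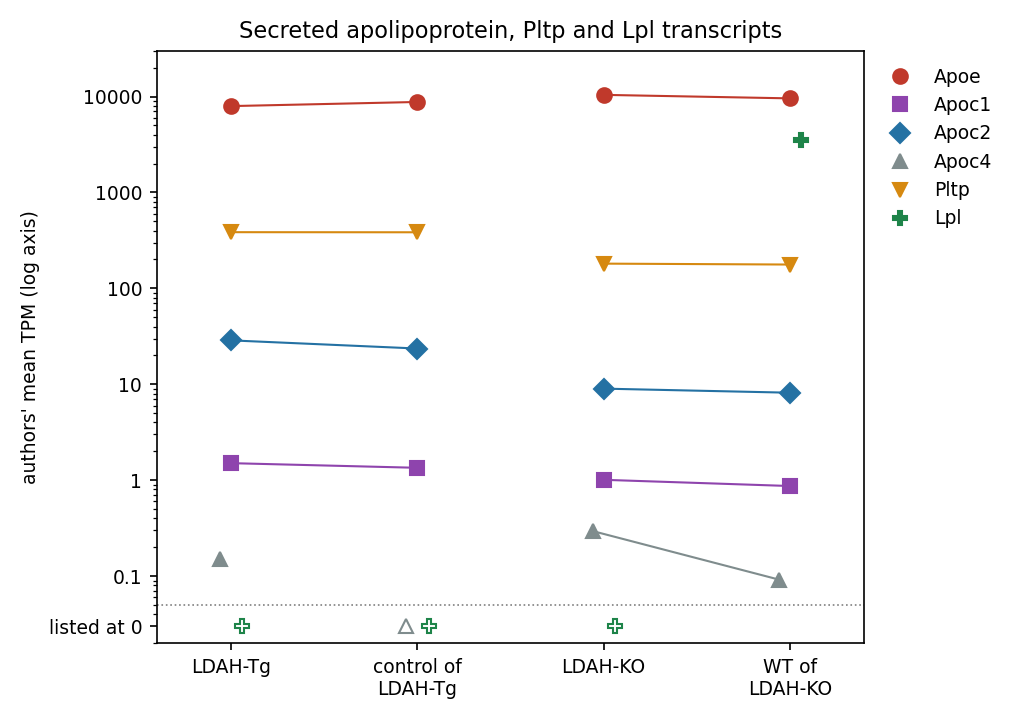
Authors' mean TPM of the 6 members in the 4 groups of PM, on a log axis, with one point per group and gene. Lines join a genotype to its own controls, and open symbols under the dotted line are values listed at 0. *Apoe* stays between 7947 and 10404 TPM, *Pltp* and *Apoc2* are lower in both groups of the LDAH-KO pair, and *Lpl* has a value, 3544 TPM, in the WT of LDAH-KO only.

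The first comparison asks what a surplus of LDAH does to these transcripts. Log2 ratios were taken after adding 0.5 TPM to each mean, for genes with a mean of at least 1 TPM over the pair and no group at 0. A gene was counted when it differed by a factor of at least 1.5, which is a size and not a test. Between LDAH-Tg PM and their controls this was the case for 1.95% of 11395 genes (1.26% higher and 0.685% lower). It was met by 0 of the 4 members that could be compared (*Apoe*, *Apoc1*, *Apoc2* and *Pltp*). *Apoe* had a log2 ratio of -0.14, and 46.1% of all genes had a larger one in either direction. *Apoc2* had the largest ratio of the members, 0.28, a factor of 1.22, and 17.7% of genes exceeded it in size. The ratio was 0.12 for *Apoc1* (0.038 with quantile normalization) and 0.0035 for *Pltp*, the sign of which turned to -0.0013 when TPM were rescaled over genes above 0 in all 4 groups. The median of the 4 was 0.061, beside 0.0022 over all genes. Set against *Apoe* within a group, the transcript of the LPL cofactor *Apoc2* stood at 3.61 TPM per 1000 TPM of *Apoe* in LDAH-Tg PM against 2.69 in their controls, a log2 difference of 0.43. *Pltp* stood at 48.5 per 1000 in LDAH-Tg PM against 43.8 in the controls, and *Apoc1* at 0.189 in LDAH-Tg PM against 0.153 in the controls.

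The second comparison asks what the loss of LDAH does. Between LDAH-KO PM and their WT controls 2.22% of 11289 genes differed by the factor of 1.5 (0.39% higher and 1.83% lower), and 0 of the 3 members compared did. *Apoe* (0.12), *Apoc2* (0.13) and *Pltp* (0.031) had slightly higher means in LDAH-KO PM, with a median log2 ratio of 0.12, while the median over all genes was -0.075. Median-ratio scaling, which takes off that shift, gave 0.20 for *Apoe*, 0.21 for *Apoc2* and 0.11 for *Pltp*. Of all genes, 52.5% had a larger ratio than *Apoe* in either direction, 48.1% a larger one than *Apoc2* and 87.0% a larger one than *Pltp*. *Apoc1* (0.14) and *Apoc4* (0.43) averaged below 1 TPM, and the ratio of *Apoc4* rests on values under 0.3 TPM. Here *Apoc2* had nearly the same proportion to *Apoe*, at 0.866 TPM per 1000 in LDAH-KO PM and 0.854 in their WT controls, a log2 difference of 0.020. *Pltp* stood at 17.4 per 1000 in LDAH-KO PM against 18.5 in WT controls. The genes most abundant in these cells, with 1000 TPM or more, had a median ratio of 0.073 (173 genes, quartiles -0.030 to 0.15), and *Apoe* lay within these quartiles. In the LDAH-Tg pair the corresponding median was 0.044 (169 genes, quartiles -0.092 to 0.14), and *Apoe* lay below them.

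*Apoc2* and *Pltp* differed more between the 2 control groups than between a genotype and its own controls. Between the controls of LDAH-Tg and the WT of LDAH-KO 38.6% of 11404 genes differed by the factor of 1.5 (12.1% higher and 26.5% lower), and 2 of the 4 members compared, *Apoc2* and *Pltp*, were higher by it. *Apoc2* had 23.6 TPM in the controls of LDAH-Tg against 8.17 TPM in the WT of LDAH-KO, a log2 ratio of 1.47 that was above that of 98.5% of genes, and *Pltp* had 384 TPM in the controls of LDAH-Tg against 177 TPM in the WT of LDAH-KO, a log2 ratio of 1.12 that was above that of 96.5%. *Apoc1* (1.35 TPM in the controls of LDAH-Tg against 0.870 TPM in the WT of LDAH-KO) had a log2 ratio of 0.43 after the added 0.5 TPM and 0.63 without it. *Apoe* did not share this step. Its ratio was -0.12, close to the median of all genes (-0.17), and turned to 0.063 when the means were scaled by the median ratio of all genes. Such scaling also took the share of higher genes among those past the factor to 50.6%, from 31.3% as deposited. Both control groups carry neither the transgene nor the KO allele. Their line, a possible *Apoe*-/- background, the time of culture and the sequencing cannot be told apart. Cell markers were compared between these groups as well. Of 9 macrophage markers compared 3 were lower by the factor in the controls of LDAH-Tg, beside 26.5% of all genes. The median over the list was -0.013, beside -0.17 over all genes. In the controls of LDAH-Tg 4 of the 9 had higher means and 5 had lower means. Among the higher ones, *Cd68* had 4959 TPM in the controls of LDAH-Tg against 3321 TPM in the WT of LDAH-KO (0.58). *Adgre1*, which encodes F4/80, had 33.1 TPM in the controls of LDAH-Tg against 146 TPM in the WT of LDAH-KO (-2.13), *Ptprc* (CD45) had 96.97 TPM in the controls of LDAH-Tg against 202 TPM in the WT of LDAH-KO (-1.06), and *Itgam* (CD11b) had 144 TPM in the controls of LDAH-Tg against 273 TPM in the WT of LDAH-KO (-0.92). Of 5 fibroblast and mesothelial markers compared 3 were lower by the factor (median -0.61), and the sum of all 9 on the list was 25.4 TPM in the controls of LDAH-Tg against 36.1 TPM in the WT of LDAH-KO. Their part in the ratios of *Apoc2* and *Pltp* was not tested. In whole cultures, fewer cells of a type and less RNA per cell cannot be told apart either.

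**Figure D2:**
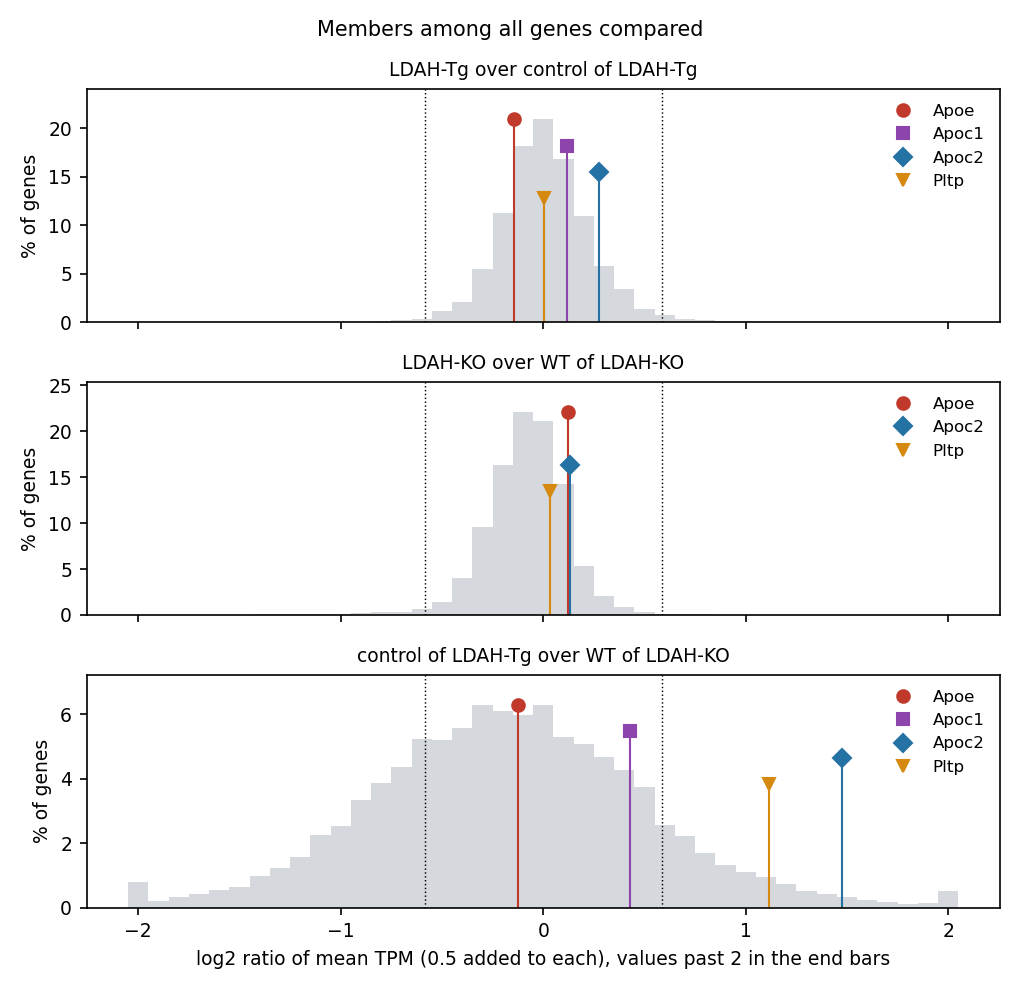
Log2 ratios of the members that could be compared (coloured stems) on the distribution of all genes (grey bars, percent of genes per bin of 0.1), for 3 comparisons. Dotted lines mark a factor of 1.5, and the height of a stem has no meaning. All members lie between the dotted lines in both genotype comparisons, while *Pltp* (1.12) and *Apoc2* (1.47) lie beyond them between the control groups.

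The differences went along with 2 properties of transcripts, their length and their GC content, both taken from the longest coding transcript of each gene. *Apoe* (1408 bases, 59.5% GC), *Apoc1* (532 bases, 54.9%) and *Apoc2* (727 bases, 56.5%) belong to the shortest 20% of genes, and *Apoe*, *Apoc2* and *Pltp* (2226 bases, 57.3%) to the 20% richest in GC. *Lpl* is long and poor in GC (4115 bases, 43.5%). In the LDAH-KO pair the log2 ratio was lower for longer transcripts across 11262 genes (Pearson r = -0.42, Spearman rho = -0.58). The shortest 20% of genes had a median of 0.081 and the longest 20% of -0.23, and the *Apoe* and *Apoc2* ratios both fell within the quartiles of this shortest class (-0.026 to 0.17). In the LDAH-Tg pair the ratio followed GC content instead (r = 0.25, rho = 0.32, 11372 genes), with a median of -0.083 in the 20% poorest in GC and 0.10 in the richest. There *Apoe* (-0.14) lay below the quartiles of its class (-0.0082 to 0.22) and *Apoc2* (0.28) above them. Between the control groups both properties went with the ratio, with rho = 0.38 for GC content and -0.34 for length over 11377 genes. In the class richest in GC the median was 0.21 (quartiles -0.14 to 0.56), so that *Apoc2* and *Pltp* lay above its quartiles and *Apoe* near the lower one. These correlations are across genes, which share their libraries and are not independent replicates. The part of length and GC content in the members' ratios was not tested beyond taking off the median of each class, which left *Apoe* and *Apoc2* in the LDAH-KO pair at 0.040 and 0.052 for length and *Apoe* in the LDAH-Tg pair at -0.25 for GC content.

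**Figure D3:**
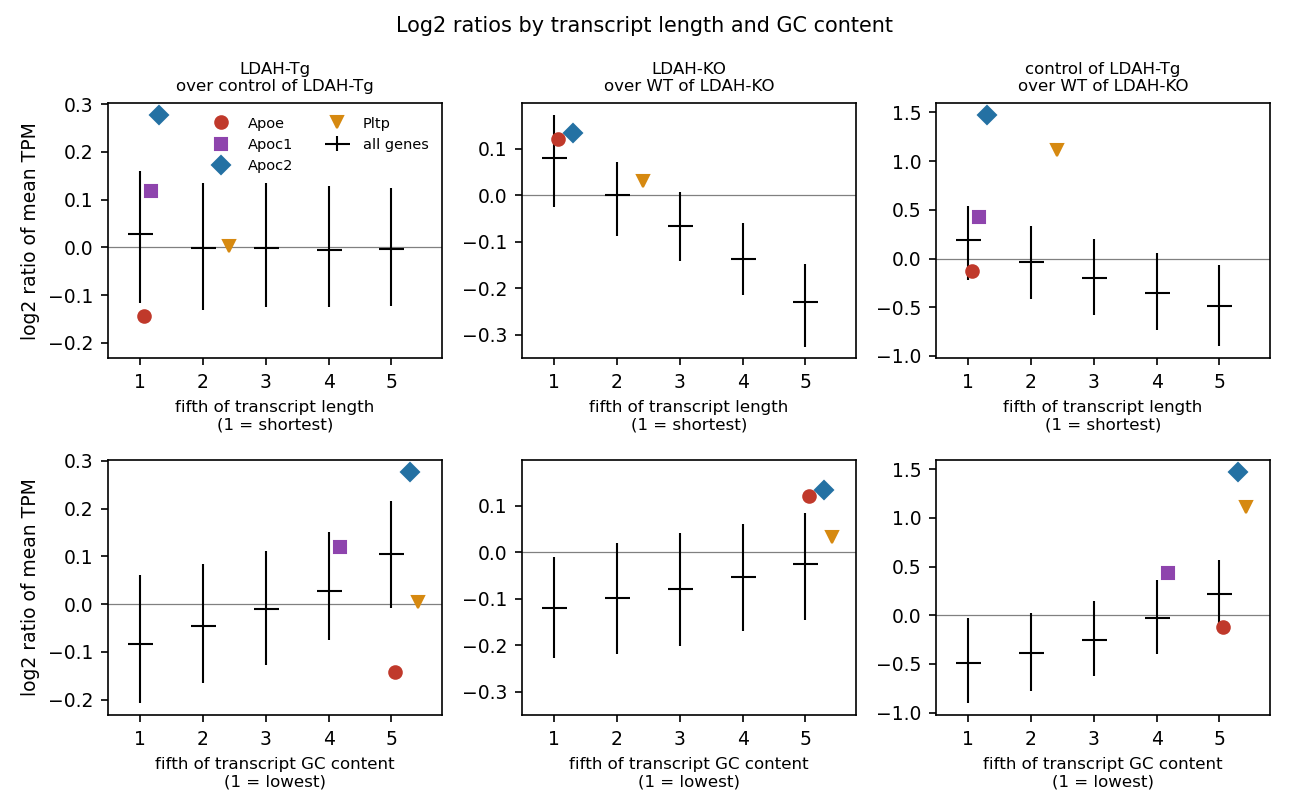
Log2 ratio against 5 equal classes of transcript length (upper row, 1 is the shortest) and of GC content (lower row, 1 is the lowest) for 3 comparisons, with horizontal ticks for the median of all genes in a class and vertical bars for the quartiles. Coloured symbols are members, placed in their own class and shifted sideways for sight. In the LDAH-KO pair the medians go down with length, with 0.081 in the shortest class and -0.23 in the longest, and *Apoe* and *Apoc2* lie within the bar of the shortest class.

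Reads over exons that 2 genes share can be credited to either. The annotated readthrough gene *Gm44805* covers 646 of the 813 exonic bases of *Apoc2* (79.5%) and 119 of the 2537 exonic bases of *Apoc4* (4.69%). It was listed at 0 in 3 groups and at 0.00022 TPM in LDAH-Tg PM, so the table assigns it almost no reads. *Pltp* shares 495 of its 2562 exonic bases (19.3%) with *Ctsa*, a lysosomal carboxypeptidase gene on the opposite strand with means of 1667 TPM in LDAH-Tg PM, 1844 TPM in their controls, 1552 TPM in LDAH-KO PM and 1797 TPM in the WT controls of LDAH-KO. The sources used here do not give the strand setting of the counting, and the *Pltp* means are uncertain to that extent. *Ctsa* did not share the difference of *Pltp* between the control groups. *Apoe*, *Apoc1* and *Lpl* overlap no other gene in the locus column of the table.

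Among the 10 annotated genes on each side of *Apoe*, 8 had a mean of at least 5 TPM, including *Apoc2*. None of them differed by the factor of 1.5 between a genotype and its own controls. The share over all genes was 1.95% in the LDAH-Tg pair and 2.22% in the LDAH-KO pair, which this count is near. In LDAH-Tg PM 7 of the 8 had a higher mean than in the controls, whereas *Apoe* was lower. Log2 ratios of the 8 ran from -0.077 to 0.45, with a median of 0.083, beside 0.0022 over all genes. In LDAH-KO PM 4 were higher and 4 lower (-0.30 to 0.19). *Tomm40*, the next gene upstream of *Apoe*, encodes the import channel of mitochondria. It had 96.2 TPM in LDAH-Tg PM against 88.7 TPM in their controls, and 54.5 TPM in LDAH-KO PM against 48.7 TPM in their WT controls, and so it followed the order of the groups seen for *Apoc2*. Between the controls of LDAH-Tg and the WT of LDAH-KO 4 of the 8 were higher by the factor, one of them *Apoc2* itself, beside 12.1% of all genes higher and 38.6% past it in either direction. Besides *Apoc2* and *Tomm40* (log2 ratio 0.86) these were *Clasrp*, a splicing regulator (19.8 TPM in the controls of LDAH-Tg against 7.66 TPM in the WT of LDAH-KO, 1.32), and *Bcl3*, a nuclear IκB protein (25.5 TPM in the controls of LDAH-Tg against 9.21 TPM in the WT of LDAH-KO, 1.42). *Apoe* (-0.12) and *Clptm1* (-0.16) were the ones of this neighbourhood without a higher mean.

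**Figure D4:**
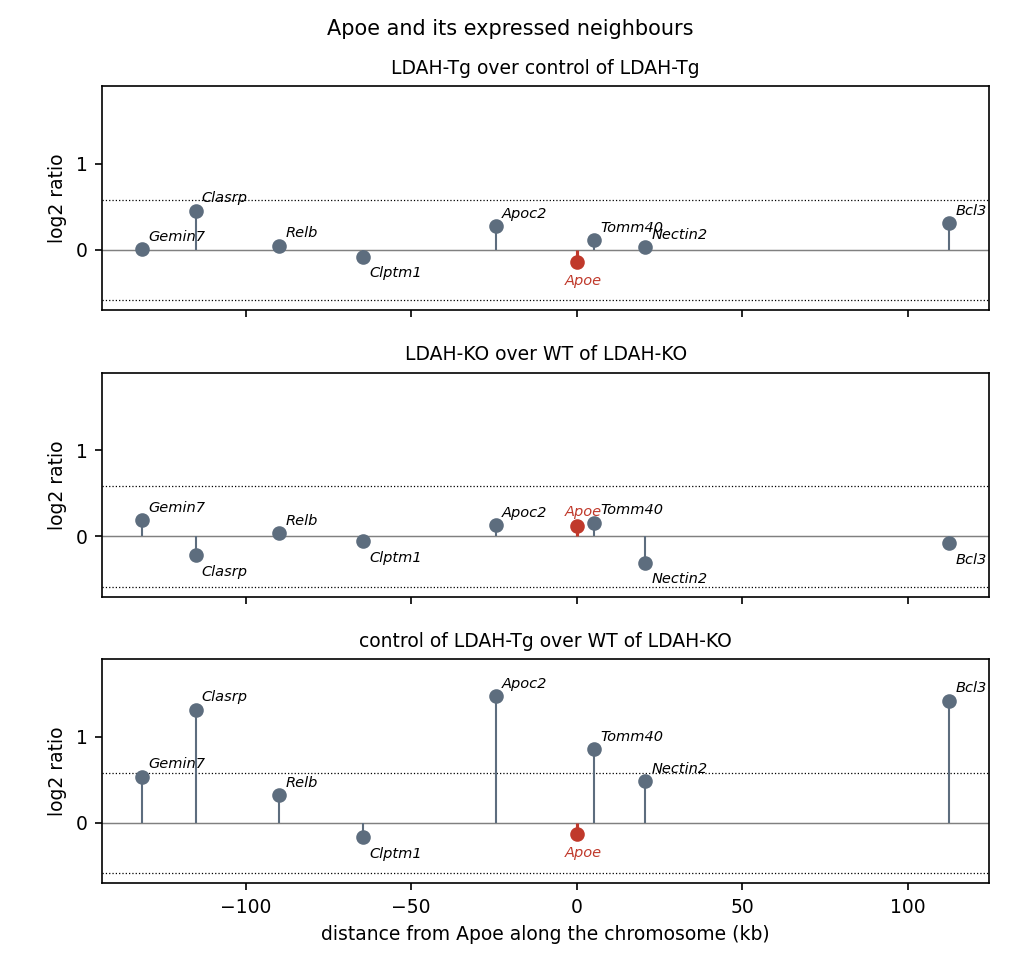
Log2 ratios of *Apoe* (red) and its 8 neighbours with at least 5 TPM (grey) against the distance from *Apoe* in kb, in 3 comparisons. Dotted lines mark a factor of 1.5. Between the control groups *Clasrp*, *Apoc2*, *Tomm40* and *Bcl3* stand above the upper line and *Apoe* lies at -0.12.

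Of 8370 genes with at least 5 TPM in every group, the 5 with a pattern most like *Apoe* were *Itpa*, *Acaa2*, *Commd2*, *Nt5c3* and *Tmem126a*. Likeness was the distance over the 3 log2 ratios (0.0196 to 0.0364). All 5 had the order of groups of *Apoe*, which their choice by these ratios fixed in advance. As an example of the values, *Acaa2*, a thiolase of fatty acid oxidation, had 74.9 TPM in LDAH-Tg PM against 81.6 TPM in their controls. It had 95.0 TPM in LDAH-KO PM against 87.9 TPM in their WT controls. *Pltp* stood at rank 7801 and *Apoc2* at rank 8216 in this order of likeness.

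The partners of the members were then described by lists of genes, chosen with earlier results known. Over all genes, 1.95% were past the factor in the LDAH-Tg pair and 2.22% in the LDAH-KO pair. A short list with 0 genes past it is not set apart by that count. Of 18 other apolipoproteins and HDL-associated proteins, 4 could be compared in each genotype comparison. In LDAH-Tg PM all 4 had lower means than in the controls, 0 of them by the factor of 1.5. The median of their ratios was -0.14, beside 0.0022 over all genes, and whether this exceeds the spread of the samples cannot be seen. *Pon2*, a paraoxonase, had 106 TPM in LDAH-Tg PM against 141 TPM in their controls (-0.41), and the acute phase apolipoprotein gene *Saa3* 362 TPM in LDAH-Tg PM against 389 TPM in the controls (-0.10). In LDAH-KO PM 1 was lower by the factor, the clusterin gene *Clu*, with 1.66 TPM in LDAH-KO PM against 3.25 TPM in WT controls (-0.80). The median of the list there was -0.056, beside -0.075 over all genes, and turned to 0.023 with median-ratio scaling. *Saa3* had 372 TPM in LDAH-KO PM against 327 TPM in WT controls (0.19).

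Although *Lpl* could not be compared, the genes that fold, release and inhibit LPL could. Of 15 such genes 11 passed in each comparison, and 0 differed by the factor in either. Over all genes the share was 1.95% in the LDAH-Tg pair and 2.22% in the LDAH-KO pair. In LDAH-Tg PM 5 had higher and 6 lower means (median -0.020), and in LDAH-KO PM 2 had higher and 9 lower means (median -0.20, beside -0.075 over all genes). With median-ratio scaling the median of the list in LDAH-KO PM was -0.13, and with quantile normalization -0.12. *Sel1l*, a subunit of the ER complex required for LPL to leave the ER, had 93.7 TPM in LDAH-Tg PM against 79.7 TPM in their controls (0.23), and 79.5 TPM in LDAH-KO PM against 99.7 TPM in their WT controls (-0.32). The LPL folding factor gene *Lmf1* had 48.2 TPM in LDAH-Tg PM against 43.8 TPM in their controls, and 19.6 TPM in LDAH-KO PM against 20.3 TPM in their WT controls. *Angptl4*, an inhibitor of LPL, had log2 ratios of -0.020 in LDAH-Tg PM and 0.059 in LDAH-KO PM. *Gpihbp1*, which carries LPL on capillary endothelium, was at 0 in all groups.

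Other lipases and lipid transfer proteins of lipoproteins gave 5 comparable genes of 11. In each genotype comparison 0 were past the factor, beside 1.95% (LDAH-Tg pair) and 2.22% (LDAH-KO pair) of all genes. Medians were -0.19 in LDAH-Tg PM and 0.063 in LDAH-KO PM (0.14 with median-ratio scaling). The largest ratio in LDAH-Tg PM belonged to *Lipa*, the lysosomal acid lipase that hydrolyses cholesteryl esters taken up with lipoproteins. It had 709 TPM in LDAH-Tg PM against 1007 TPM in their controls (-0.51), and 1795 TPM in LDAH-KO PM against 1910 TPM in their WT controls (-0.090). The lysosomal cholesterol carrier gene *Npc2* had 519 TPM in LDAH-Tg PM against 624 TPM in their controls (-0.27), and the gene of the secreted phospholipase *Pla2g7* had 656 TPM in LDAH-Tg PM against 747 TPM in the controls (-0.19). In LDAH-KO PM the ratios of *Npc2* and *Pla2g7* were 0.063 and 0.072.

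Of 18 receptors and uptake factors for apoE, 14 were compared in LDAH-Tg PM. There 0 were past the factor, beside 1.95% of all genes, and the median was -0.037. In LDAH-KO PM 15 were compared and 12 had lower means, with a median of -0.21 beside -0.075 over all genes. Of the 15, 1 was lower by the factor, beside 1.83% of all genes. With median-ratio scaling 10 of the 15 were lower and the median was -0.14, and quantile normalization gave a median of -0.076. That gene was the syndecan gene *Sdc2*, with 0.683 TPM in LDAH-KO PM against 1.34 TPM in their WT controls (-0.64, and -0.49 with quantile normalization). *Lrp1*, a large endocytic receptor of apoE-rich remnants, had 157 TPM in LDAH-KO PM against 201 TPM in their WT controls (-0.36), and 750 TPM in LDAH-Tg PM against 789 TPM in their controls (-0.071). *Trem2*, a microglial and macrophage receptor that binds apoE, had 2011 TPM in LDAH-Tg PM against 2046 TPM in their controls (-0.025), and 2187 TPM in LDAH-KO PM against 2145 TPM in their WT controls (0.028). *Clu* and *Sdc2* are also expressed by fibroblasts. The fibroblast and mesothelial markers summed to 18.5 TPM in LDAH-KO PM against 36.1 TPM in their WT controls, with 5 of 5 compared lower by the factor (median -0.94), and to 23.9 TPM in LDAH-Tg PM against 25.4 TPM in their controls. Their part in these ratios was not tested.

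Of 11 genes that partner apoE in its export, among them the cholesterol transporters, 7 were compared in LDAH-Tg PM and 8 in LDAH-KO PM. In both pairs 0 were past the factor, beside 1.95% (LDAH-Tg pair) and 2.22% (LDAH-KO pair) of all genes. Medians were -0.077 in LDAH-Tg PM and -0.13 in LDAH-KO PM. The median in LDAH-KO PM was -0.052 with median-ratio scaling and -0.043 with quantile normalization. *Abca1*, which loads cholesterol on lipid-poor apolipoproteins, had 69.3 TPM in LDAH-Tg PM against 76.5 TPM in their controls (-0.14), and 63.3 TPM in LDAH-KO PM against 82.2 TPM in their WT controls (-0.37). *Abcg1*, which passes cholesterol to HDL, had 220 TPM in LDAH-Tg PM against 251 TPM in their controls (-0.19), and 191 TPM in LDAH-KO PM against 217 TPM in their WT controls (-0.18). *Lamp1*, a lysosomal membrane protein gene, had the largest ratio of this list, with 1121 TPM in LDAH-Tg PM against 1622 TPM in their controls (-0.53). *Apoe*, *Abca1* and *Abcg1*, which are all known LXR targets, had lower means in LDAH-Tg PM than in their controls. The other LXR-induced members compared, *Apoc2* (0.28), *Apoc1* (0.12) and *Pltp* (0.0035), did not have lower means there. In LDAH-KO PM *Apoe* was higher and both transporters were lower than in WT controls. With quantile normalization the ratio of *Apoe* was 0 in both pairs, and those of *Abca1* and *Abcg1* stayed below 0 under each scaling tried. None of these differences between mean TPM reached the factor of 1.5. By qPCR of oxLDL-treated PM, the study found *Abca1* and *Abcg1* induced in LDAH-Tg PM and reduced in LDAH-KO PM. It also states that its RNA-seq did not pick out these 2 genes.

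Finally, 16 of 18 LXRs, partner receptors, coregulators and macrophage transcription factors were compared in each pair. In LDAH-Tg PM 13 had higher means, 0 by the factor, with a median of 0.11, beside 0.0022 over all genes. In LDAH-KO PM 12 had lower means and 1 was lower by the factor, with a median of -0.097, beside -0.075 over all genes. Median-ratio scaling put 8 of the 16 below 0 in LDAH-KO PM and moved the median to -0.019. The LXR genes *Nr1h3* and *Nr1h2* had log2 ratios of 0.040 and 0.21 in LDAH-Tg PM and of 0.092 and -0.13 in LDAH-KO PM. The corepressor gene *Ncor1* had 46.4 TPM in LDAH-Tg PM against 41.0 TPM in their controls (0.18), and 56.5 TPM in LDAH-KO PM against 85.6 TPM in their WT controls (-0.60, but -0.52 with median-ratio scaling and -0.55 with quantile normalization, both short of the factor). The coactivator genes *Ncoa6* (-0.43) and *Ncoa1* (-0.40) also had lower means in LDAH-KO PM. *Spi1*, which encodes PU.1, had 422 TPM in LDAH-Tg PM against 390 TPM in their controls, and 330 TPM in LDAH-KO PM against 345 TPM in their WT controls. As for the receptors, most ratios of the list were below 0 in the pair in which longer transcripts had lower ratios, and the part of length was not tested. Nor was the part of GC content, with which ratios rose in the LDAH-Tg pair.

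**Figure D5:**
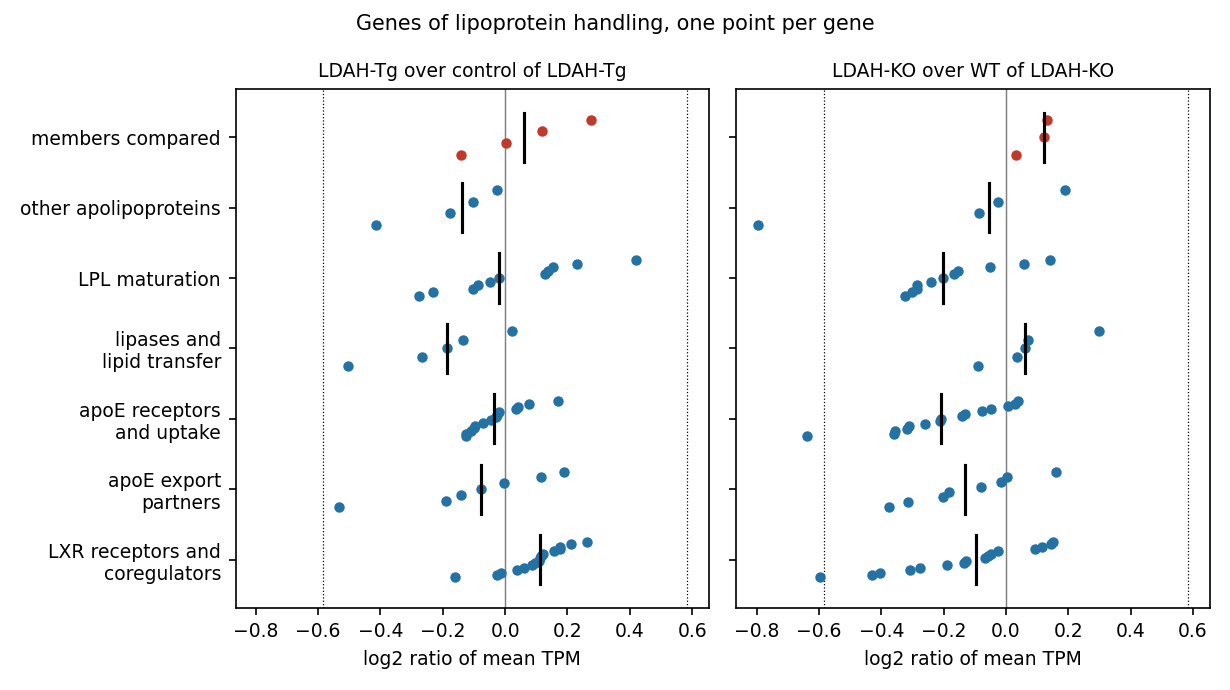
Log2 ratios of single genes (points) in 7 groups of genes for both genotype comparisons, with black bars for the median of each group and dotted lines for a factor of 1.5. In LDAH-Tg PM the points of every list lie between the dotted lines, and in LDAH-KO PM *Clu* (-0.80), *Sdc2* (-0.64) and *Ncor1* (-0.60) lie beyond the lower one.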

How the data were processed

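RNA of oxLDL-treated PM was sequenced from poly(A)-enriched libraries in 16 samples. The authors aligned reads to mm10 (GRCm38) with STAR 2.4.2a after trimming with Trimmomatic, and the submitters' notes also name bcl2fastq 2.17.1.14, Cuffdiff 2.2.1, HTSeq and DESeq2. The tool that made the TPM values, the annotation release and the strand setting are not given in the sources used here. The deposited table holds a mean TPM per group, made by the authors, whose 4 columns each sum to 1000000, and 1 line holding this total was left out. Depth per sample and replicate spread are thus not seen, and the tests of the original plan became descriptions of size. Where a symbol was repeated (116 further entries), the gene with the highest mean was used. Of the gene IDs, 99.2% are in GENCODE M21, which gave coordinates, overlaps and transcripts.

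Ratios, the filter (1 TPM, no group at 0), the added 0.5 TPM and the factor of 1.5 are described with the results. Only the ratio, the filter and the factor were run on simulated data, with genes raised well past the factor, so that they had to be counted. The scalings, gene lists, length and GC classes, motif search and ranking of patterns were not run on simulated data. The 6 members, the gene lists, the filter and the factor were chosen with earlier results of these data known. Named were the members, up to 4 genes of each list with the largest ratio at 5 TPM or more, list genes past the factor or listed at 0, genes that overlap or neighbour a member, and the 5 genes nearest to *Apoe* in pattern. Some genes that this rule names are not reported here. *Adgre1*, *Ptprc*, *Itgam*, *Cd68*, *Cd36*, *Ctsl*, *Ctss*, *Prdx1*, *Lmf1*, *Angptl4*, *Gpihbp1*, *Trem2*, *Nr1h3*, *Nr1h2* and *Spi1* were named after their values were seen. Alternatives were other pseudocounts, median-ratio scaling, quantile normalization, rescaling over genes above 0 in all groups, other filters and other factors. No pseudocount, scaling of the gene lists and taking off the medians by length or GC content were added after the data were seen. Lymphocyte, granulocyte and mast cell markers had 2 of 14 genes compared, 0 past the factor between genotypes. Python 3.11.15, numpy 2.4.6, pandas 2.3.3 and matplotlib 3.10.9 were used.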

Additional observations from a re-analysis of the deposited data

How the results depend on the processing

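No paired analysis was possible because the columns hold group means and carry no replicate, and for the same reason no fit without single replicates was run. The members that passed the filter kept their side of the factor of 1.5 under the alternatives run, except *Apoc1* between the control groups, which passed it with no pseudocount (0.63). *Apoc4* in the LDAH-KO pair, below the filter, had 0.43 with 0.5 TPM added and 1.68 with none, and no other alternative was run for it. For *Apoc1* between the control groups the values were 0.58 and 0.33 with 0.1 and 1 TPM added. Quantile normalization put *Apoe* at 0 in both genotype comparisons, since its rank was the same in both groups of each pair, and gave 0.26 for *Apoc2* in the LDAH-KO pair. Between the control groups it gave -0.55 for *Apoe*, 1.68 for *Apoc2* and 1.23 for *Pltp*, and median-ratio scaling gave 0.063, 1.66 and 1.30, with 0.57 for *Apoc1*. Taking off the median by GC content gave -0.25, 0.17 and -0.10 for *Apoe*, *Apoc2* and *Pltp* in the LDAH-Tg pair, and -0.34, 1.26 and 0.90 between the control groups. Taking off the median by length gave -0.32, 0.24 and 1.28 for *Apoe*, *Apoc1* and *Apoc2* between the control groups.

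Past the factor of 1.5 were 222 genes in the LDAH-Tg pair, 251 in the LDAH-KO pair and 4404 between the control groups. A factor 25% above 1 gave 1438, 1338 and 7222 genes, and a factor of 2 gave 49, 63 and 1708. Without the filter on low values the genotype pairs gave 388 and 460 genes, and with a minimum of 5 TPM 96 and 75. Of the genes past the factor in the LDAH-KO pair 17.5% were higher, against 27.8% with median-ratio scaling and 37.9% with quantile normalization, which gave 50.3% between the control groups.

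With means alone, none of the members' ratios can be set against the spread between samples. *Lpl* cannot be compared in any pair. Ratios of *Apoc1* and *Apoc4* rest on means near or under 1 TPM.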
